A study of Mus musculus with 158 samples.

Results

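Sites of open chromatin shared by liver and lung, and found in neither kidney nor B cells, were described in F1 hybrid mice. DNase-seq hotspots, the regions where DNase I cuts nuclear DNA more often than the surrounding background, were merged across 20 adult sets where they overlapped by at least 1 bp. A merged region on an autosome was kept when it held a hotspot in 3 or more of 5 liver sets and 3 or more of 5 lung sets, and in no kidney or B cell set. This left 6297 of 714403 merged regions (0.881%), which are called liver-lung sites here. The sites were thus chosen by the presence of a hotspot in the 4 tissues, and the number of sets that hold each of them is given as a description only.

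DNase I cuts chromatin most readily where transcription factors have displaced nucleosomes, so hotspots mark promoters, enhancers and insulators. CEBP factors are leucine-zipper proteins of hepatocytes, lung epithelium and myeloid cells, and they act on metabolic and acute-phase genes. FOXA factors open compacted chromatin in the foregut endoderm, the embryonic sheet from which both the liver and the lining of the lung arise.

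The hybrids, labelled B6x129, B6xC3H, B6xCAST, B6xPWK and B6xSPRET, had C57BL/6J (B6) mothers and fathers of the strain that the latter part of the label abbreviates, so every sample carried 1 B6 genome and 1 genome of another strain. Whole liver, whole kidneys, all lung lobes and B cells were taken from mice of 8 weeks, with tissue from several mice pooled, and the B cells came from femoral marrow after depletion of cells bearing CD43 or Mac-1/CD11b. The B6x129 and B6xC3H mice and the donors of marrow were females. The 20 adult sets, 1 for each hybrid and tissue, came from 138 labelled libraries, and since the authors pooled the replicates of each set, the 5 hybrids served as the repeats. One DNase-seq set and 1 CTCF ChIP-seq set of B6xCAST mouse embryonic stem cells (mESCs) and RNA-seq of 17 tissue samples (4 of liver, 4 of lung, 4 of kidney and 5 of B cells) were also used, the RNA being from B6xC3H, B6xPWK and B6xSPRET mice except for 1 B cell sample of B6xCAST.

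The sets held 78387 to 295565 hotspots each. Hotspots within 1 kb of the start of marker genes followed the labels in part. Apoa1, an apolipoprotein of hepatocytes, had one in 5 liver sets and in no other set, and the surfactant gene Sftpc had one in 5 lung sets and in no other set. The other lung markers separated lung from liver less. Scgb1a1 and Ager, genes of lung epithelium, had one in all 5 sets of both lung and liver. Ager also had one in 2 kidney sets and 1 B cell set. Sftpb, another surfactant gene, had one in 5 lung sets, 2 liver sets and 1 kidney set. Cd79a, a chain of the B cell receptor, had one in 5 B cell sets and also in 4 lung and 2 liver sets, and Slc12a1, the salt carrier of the thick ascending limb, in 5 kidney and 2 lung sets. Alb, the gene for albumin, had one in all 5 sets of each of liver, lung and kidney. In whole tissue, fewer cells of a type and less accessible DNA per cell cannot be told apart.

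The sequences of a few liver-lung sites are shown because each holds a match to CEBP or FOXA. Both were more frequent at liver-lung sites than at other shared sites (below, with the values of each site). AP-1 is marked as well, but was not more frequent than at kidney and lung sites. They are 300-bp windows on the centre of the site, or the part of that window outside annotated exons, from the + strand of the GRCm38/mm10 reference, which is the B6 sequence. Capitals mark matches to the consensus of CEBP (TTGCNNAA), FOXA (TGTTTAC) or AP-1 (TGANTCA) on either strand, and N stands for any base.
Hp site (chr8:109584875-109585174): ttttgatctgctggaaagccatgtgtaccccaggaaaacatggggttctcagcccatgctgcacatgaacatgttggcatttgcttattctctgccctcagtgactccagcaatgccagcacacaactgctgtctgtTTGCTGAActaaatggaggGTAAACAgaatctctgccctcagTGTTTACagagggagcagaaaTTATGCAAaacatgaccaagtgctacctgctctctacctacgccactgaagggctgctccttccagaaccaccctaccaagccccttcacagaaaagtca
Orm2 site (chr4:63362198-63362448): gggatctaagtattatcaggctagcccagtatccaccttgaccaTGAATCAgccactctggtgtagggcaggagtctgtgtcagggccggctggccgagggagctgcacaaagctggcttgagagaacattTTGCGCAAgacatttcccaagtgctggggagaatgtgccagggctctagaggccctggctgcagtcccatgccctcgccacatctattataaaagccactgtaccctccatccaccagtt
Gstm1 site (chr3:108022621-108022920): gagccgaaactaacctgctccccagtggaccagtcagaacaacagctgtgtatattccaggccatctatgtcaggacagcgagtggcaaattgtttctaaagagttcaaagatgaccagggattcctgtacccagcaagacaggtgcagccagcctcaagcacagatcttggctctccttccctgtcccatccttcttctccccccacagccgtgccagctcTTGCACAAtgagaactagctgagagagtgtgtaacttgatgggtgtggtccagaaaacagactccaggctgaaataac
Slc34a2 site (chr5:52993810-52994060): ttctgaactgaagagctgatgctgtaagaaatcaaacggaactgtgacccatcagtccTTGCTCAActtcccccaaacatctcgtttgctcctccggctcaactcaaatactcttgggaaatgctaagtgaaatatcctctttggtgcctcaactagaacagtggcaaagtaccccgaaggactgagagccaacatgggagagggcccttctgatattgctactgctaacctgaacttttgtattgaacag
Foxa2 FOXA site (chr2:147971362-147971661): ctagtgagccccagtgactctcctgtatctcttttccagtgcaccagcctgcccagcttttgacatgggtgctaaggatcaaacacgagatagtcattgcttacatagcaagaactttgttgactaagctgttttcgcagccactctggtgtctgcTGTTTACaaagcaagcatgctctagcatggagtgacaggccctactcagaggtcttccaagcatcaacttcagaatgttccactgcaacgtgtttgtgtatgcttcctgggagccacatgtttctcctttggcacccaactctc
Foxa2 CEBP site (chr2:148013465-148013764): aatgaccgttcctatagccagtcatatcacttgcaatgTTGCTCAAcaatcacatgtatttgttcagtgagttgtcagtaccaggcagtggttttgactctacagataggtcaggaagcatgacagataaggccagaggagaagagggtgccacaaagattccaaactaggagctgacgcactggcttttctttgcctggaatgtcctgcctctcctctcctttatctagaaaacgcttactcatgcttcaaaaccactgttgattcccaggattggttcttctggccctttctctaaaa
Glt1d1 site (chr5:127956738-127957037): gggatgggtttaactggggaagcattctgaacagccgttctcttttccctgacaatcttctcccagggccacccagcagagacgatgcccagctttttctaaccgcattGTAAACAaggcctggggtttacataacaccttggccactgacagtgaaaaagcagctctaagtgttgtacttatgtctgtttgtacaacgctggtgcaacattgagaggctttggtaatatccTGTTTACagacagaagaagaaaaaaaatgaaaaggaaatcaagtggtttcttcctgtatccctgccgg
Prkca site (chr11:108306955-108307254): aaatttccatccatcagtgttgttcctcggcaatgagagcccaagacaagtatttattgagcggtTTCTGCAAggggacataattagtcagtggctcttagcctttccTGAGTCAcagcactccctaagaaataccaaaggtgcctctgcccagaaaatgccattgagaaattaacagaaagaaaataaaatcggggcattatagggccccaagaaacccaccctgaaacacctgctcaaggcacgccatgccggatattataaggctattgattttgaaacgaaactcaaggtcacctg

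The Hp window held 2 CEBP and 2 FOXA matches. The Orm2 window held the palindromic form of the CEBP consensus, TTGCGCAA, and 1 AP-1 match. The Gstm1 window held TTGCACAA, the commonest of the CEBP forms at liver-lung sites, and the Slc34a2 window and a Foxa2 window held TTGCTCAA. The Glt1d1 window held 2 FOXA matches, and the Prkca window 1 CEBP and 1 AP-1 match. The CEBP form at Prkca was TTCTGCAA, which is TTGCAGAA on the other strand. That form lay in 1.99% of liver-lung windows, 1.61% at liver and kidney sites and 1.72% at kidney and lung sites. The form TTGCTGAA of the Hp window differed even less between the classes (below).

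Of the 6297 sites, 2149 (34.1%) held a hotspot in all 10 liver and lung sets and 314 in exactly 3 of each. Just outside the rule, 508 regions had hotspots in 3 liver and 2 lung sets and 488 in 2 liver and 3 lung sets, with none in kidney or B cells. Altogether 79850 regions had a hotspot in at least 3 liver and 3 lung sets, and 2409 of these missed the rule by a single kidney or B cell set. That set was a kidney set for 1761 regions and a B cell set for 648, and the median −log10 FDR of the hotspot was 2.18.

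In liver, 5180 of the sites had a hotspot in B6xSPRET, 5935 in B6xPWK, 5812 in B6xCAST, 5268 in B6xC3H and 6139 in B6x129. In lung the numbers were 4829 in B6xSPRET, 5479 in B6xPWK, 6232 in B6xCAST, 3962 in B6xC3H and 6094 in B6x129. The B6xC3H lung set stood lowest and lacked 2335 of the sites (37.1%), and it also held the fewest hotspots of the 5 lung sets, 152006 against 169389 to 281978. Of the sites present in all 8 sets of the other hybrids, 91 of 3018 were missing from both tissues of B6xC3H and 34 of 2634 from both tissues of B6xSPRET, against 0 of 2183 in B6x129, 1 of 2214 in B6xCAST and 2 of 2295 in B6xPWK. Whether sequence differences or the number of hotspots in a set had a part in these gaps was not tested.

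Hotspots at the sites were wider in liver than in lung. The median width in liver was 320 bp in B6xSPRET, 335 bp in B6xPWK, 307.5 bp in B6xCAST, 336 bp in B6xC3H and 349 bp in B6x129. In lung it was 258 bp in B6xSPRET, 261 bp in B6xPWK, 306 bp in B6xCAST, 211 bp in B6xC3H and 277 bp in B6x129. No lung set reached the narrowest liver set, although B6xCAST differed by only 1.5 bp between the tissues. The study lists more analysed reads for liver than for lung in every hybrid but B6xCAST. Width was not adjusted for depth, and whether depth had a part in the difference was not tested. The means were 329.5 ± 16.02 bp in liver and 262.6 ± 34.6 bp in lung (SD, n = 5 hybrids), a difference of 66.9 bp with an exact two-sided permutation p = 0.00794, the smallest that 5 sets against 5 can give. Paired by hybrid, the exact sign-flip test gave p = 0.0625, the smallest that 5 pairs allow. With these sites kept, leaving out 1 hybrid gave differences of 52.4 to 83.25 bp, each with p = 0.0286 by the exact permutation test. When the sites were defined anew from the other hybrids, with 3 of 4 required, the difference did not pass the threshold without B6x129 (77.75 bp, exact permutation p = 0.0857) or without B6xPWK (69.5 bp, p = 0.0571).

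Greater width in liver was not particular to these sites. Over all hotspots of a set the liver median was wider by 24.2 bp (exact permutation p = 0.00794, n = 5), and at the 39359 regions open in all 4 tissues by 62.0 bp (p = 0.103, n = 5). The difference at liver-lung sites exceeded that at the regions open in all 4 tissues by 4.9 ± 55.2 bp (mean ± SD over hybrids), less than the spread between hybrids. The score of the best hotspot also stood higher in liver, with set medians of −log10 FDR from 12.3 to 16.6 in liver and from 3.70 to 9.62 in lung. From 10.2% to 19.2% of the sites reached the ceiling of 100 of this score in a liver set and 0% to 0.786% in a lung set. The score grows with the depth of a set and was not adjusted for it. The set medians were therefore not tested between tissues, and no test of the shares at the ceiling is reported here.

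**Figure D1:**
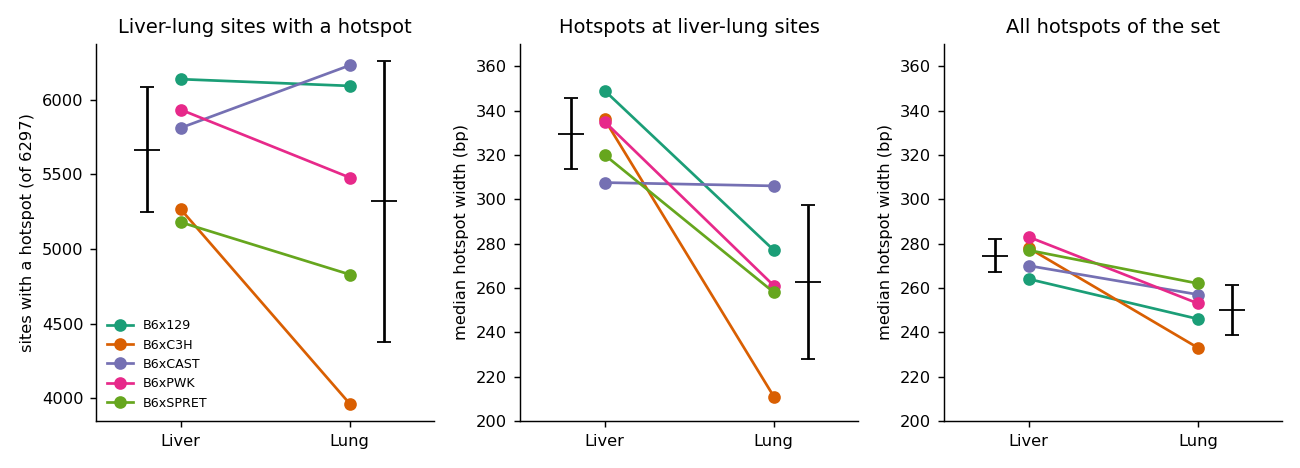
Liver-lung sites in each liver and lung set. Left, number of the 6297 sites with a hotspot; middle, median width in bp of the hotspots at the sites; right, median width in bp of all hotspots of the set (vertical axes not from 0). Points joined by a line are 1 hybrid, and crosses with bars are the mean ± SD of 5 hybrids. The line of B6xCAST is nearly flat in the middle panel (307.5 to 306 bp) and that of B6xC3H falls most (336 to 211 bp).

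Most of the sites lay away from promoters, as did most merged regions. The median site was 523 bp wide (quartiles 381 and 767 bp) and 32.3 kb from the nearest start of a protein-coding gene. Within 1 kb of a start lay 111 sites (1.76%). Over all merged regions the median distance was 41.6 kb, and 3.72% lay within 1 kb of a start. That share was 1.39% for sites of liver only, 1.54% for lung only, 2.07% for liver and kidney only and 2.81% for kidney and lung only. Relative to protein-coding genes, 53.0% of liver-lung sites were intronic, 41.8% intergenic and 5.21% exonic, against 44.2%, 49.9% and 5.90% of all merged regions. The windows of liver-lung sites had a median GC content of 46.0% and a mean repeat content of 12.9%, against a repeat content of 20.4% for all merged regions.

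Few of the sites were open in mESCs. A DNase hotspot of mESCs overlapped 296 sites (4.70%, 95% Wilson interval 4.20% to 5.25%), and 5.02% after the sites were shifted by 1 Mb, so the overlap was not above that of shifted positions. The share was 2.18% when 50% of the site had to be covered and 8.36% for sites of the 75000 highest-scoring hotspots of each set. The share was 5.53% for sites of liver and kidney only, 10.6% for sites of kidney and lung only and 77.9% for regions open in all 4 tissues. For CTCF, the zinc-finger protein of insulators, mESC hotspots overlapped 2.54% of liver-lung sites against 4.45% after the shift. For sites defined within each hybrid alone, the mESC DNase share was 6.75 ± 1.10% for liver and lung, 13.2 ± 1.64% for kidney and lung and 9.75 ± 3.53% for liver and kidney (SD, n = 5). By exact permutation tests adjusted over 8 comparisons, the first differed from the second (adjusted p = 0.0317, lower in 5 of 5 hybrids) and not from the third (adjusted p = 0.203). The lower share than at kidney and lung sites did not pass the threshold when any 1 of the 5 hybrids was left out (adjusted p from 0.0762 to 0.114) or in the exact test paired by hybrid (adjusted p = 0.125).

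Of the 24 consensus sequences, which the rule had not used, CEBP was found at the most liver-lung sites, followed by AP-1 (14.2%), FOXA and NFI (12.5%). A match to the CEBP consensus lay in 1914 of 6297 windows (30.4%, Wilson interval 29.3% to 31.5%), against 14.8% at the 15152 sites of liver and kidney only, 15.8% at the 8360 sites of kidney and lung only and 14.9% of all merged regions. Sites of liver only and of lung only held it in 20.4% and 19.5% of windows. A FOXA match lay in 796 windows (12.6%), against 5.27% at liver and kidney sites, 5.92% at kidney and lung sites and 5.60% of all merged regions. Sites of liver only and of lung only held a FOXA match in 8.00% and 8.97% of windows. The sites of a single tissue entered none of the tests below. Altogether 48.4% of liver-lung sites held a CEBP, FOXA or AP-1 match, against 28.5% of all merged regions, and 235 sites held both CEBP and FOXA. A match describes the letters of the reference and does not show that a factor was bound.

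**Figure D2:**
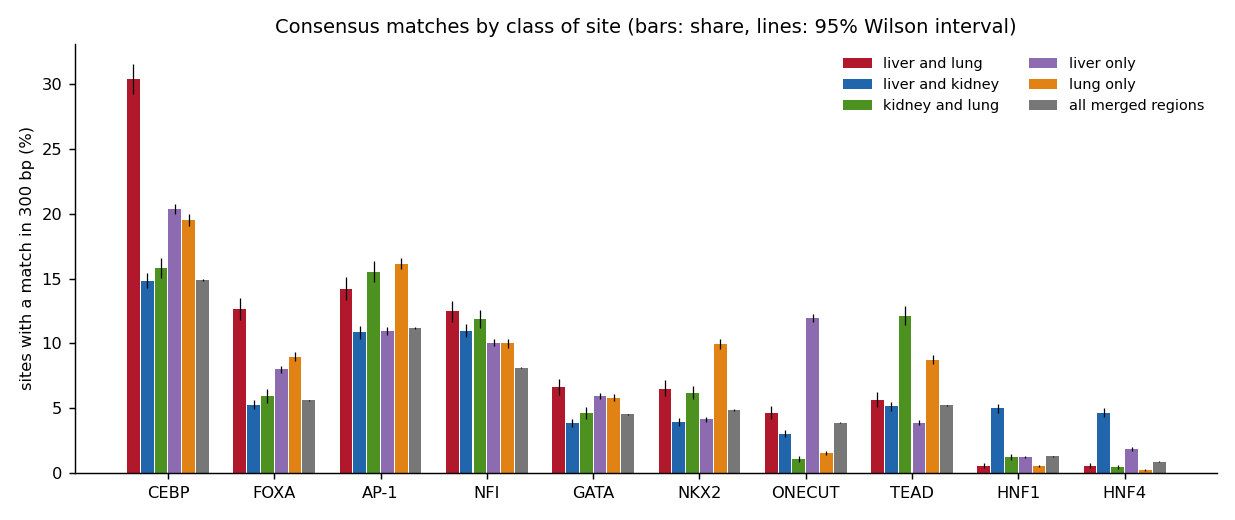
Share of 300-bp windows (%) with a match to each consensus, by class of site. Bars are shares and lines 95% Wilson intervals, which count single windows. Liver-lung sites (dark red) stand highest for CEBP at 30.4% and FOXA at 12.6%, sites of liver and kidney only for HNF4 at 4.65% and HNF1 at 5.00%, sites of kidney and lung only for TEAD at 12.1%, and sites of liver only for ONECUT at 11.98%.

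To test these shares over hybrids, sites were defined anew within each hybrid from its own 4 sets, which gave 8741 to 23332 sites of liver and lung only per hybrid. The CEBP share of these sites was 29.3% in B6xSPRET, 28.0% in B6xPWK, 26.1% in B6xCAST, 26.9% in B6xC3H and 24.1% in B6x129. All 5 values lay above every value of the liver and kidney sites (14.4% to 14.9%) and of the kidney and lung sites (13.1% to 15.5%). The means were 26.9 ± 1.97%, 14.7 ± 0.180% and 14.4 ± 0.886% (SD, n = 5), and both differences had an adjusted p = 0.0131 by exact permutation over 24 consensus sequences and 2 comparisons. The FOXA share was 11.004 ± 1.21% against 5.42 ± 0.193% at liver and kidney sites and 5.83 ± 0.473% at kidney and lung sites, with the same adjusted p = 0.0131 and a higher share in 5 of 5 hybrids. The same region can be a site in several hybrids, although how many were shared was not counted, and the reference sequence was used for all. These p-values therefore measure only the spread between sets of calls. Paired by hybrid, every test stayed above 0.05, since 5 pairs cannot give an adjusted p below 0.0625.

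By this test 19 of 24 consensus sequences differed from liver and kidney sites and 13 from kidney and lung sites. Those higher at liver-lung sites in both comparisons were CEBP, its palindromic form TTGCGCAA, FOXA, ONECUT, GATA, RUNX and the glucocorticoid receptor. ONECUT stands for homeodomain factors of hepatocytes, with the letters ATCAATA. The letters of the GATA factors were AGATAAG, those of the RUNX factors AACCACA and those of the glucocorticoid receptor ACANNNTGT. RUNX letters were nevertheless as frequent over all merged regions (7.698%) as at the 6297 liver-lung sites (7.702%), and the glucocorticoid receptor letters stood at 10.1% and 11.9%. ONECUT letters stood at 3.86% and 4.64%, and GATA letters at 4.52% and 6.64%. The mean ONECUT share of the sites defined within each hybrid, 3.80%, was not above that of all merged regions. HNF1 (GTTAATNAT), read by homeodomain factors of liver and kidney tubules, was lower in both, at 0.637 ± 0.0647% against 3.93 ± 0.355% at liver and kidney sites and 1.04 ± 0.127% at kidney and lung sites (adjusted p = 0.0131, exact permutation, n = 5). HNF4 (CAAAGTCCA), read by a nuclear receptor of hepatocytes and proximal tubules, stood at 0.637% against 3.64% at liver and kidney sites (adjusted p = 0.0131) and 0.502% at kidney and lung sites (adjusted p = 0.0238, and 0.0762 to 0.0857 without B6xC3H, B6xCAST, B6xPWK or B6xSPRET). TEAD (ACATTCC), read by the partners of YAP and TAZ, stood at 5.30% against 10.4% at kidney and lung sites (adjusted p = 0.0131) and 5.22% at liver and kidney sites (adjusted p = 0.681). AP-1 stood at 13.99% against 10.6% at liver and kidney sites (adjusted p = 0.0131) and 14.7% at kidney and lung sites (adjusted p = 0.243). TTGCGCAA is counted within CEBP and the consensus of NFE2L2 (TGACTCAGC) within AP-1, so those pairs are not separate results.

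The CEBP surplus depended on the middle bases. Among liver-lung sites, TTGCACAA lay in 359 windows (5.70%), against 1.21% at liver and kidney sites and 1.23% at kidney and lung sites. TTGCTCAA followed with 264 windows (4.19% against 1.25% and 1.36%) and TTGCATAA with 206 (3.27% against 1.29% and 1.38%). TTGCTGAA lay in 1.92% of the windows, close to the 1.77% and 1.93% of the other classes. Forms with CG directly after TTG were rare, and 3 of the 4 stood further apart. TTGCGTAA lay in 76 liver-lung windows (1.21% against 0.145% and 0.108%), TTGCGAAA in 71 (1.13% against 0.139% and 0.132%) and TTGCGCAA in 33 (0.524% against 0.0462% and 0.0957%), while TTGCGGAA lay in 9 (0.143% against 0.0528% and 0.144%). TTGCCGAA also lay in 9 (0.143% against 0.125% and 0.132%). The single forms were counted without a test.

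The matches lay at the middle of the sites. Within 100 bp of the centre of the merged region, liver-lung sites held 1.38 CEBP matches per kb, against 0.468 at 800 to 1000 bp from it, a ratio of 2.95. The same ratio was 1.27 at liver and kidney sites and 1.38 at kidney and lung sites. For FOXA the density was 0.538 per kb within 100 bp against 0.140 at 800 to 1000 bp, a ratio of 3.85, with 1.27 at liver and kidney sites and 1.502 at kidney and lung sites. For HNF4 the ratio was 1.11 at liver-lung sites and 12.9 at liver and kidney sites, and for TEAD 1.38 at liver-lung sites and 3.54 at kidney and lung sites. These densities are pooled over sites and were not tested.

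**Figure D3:**
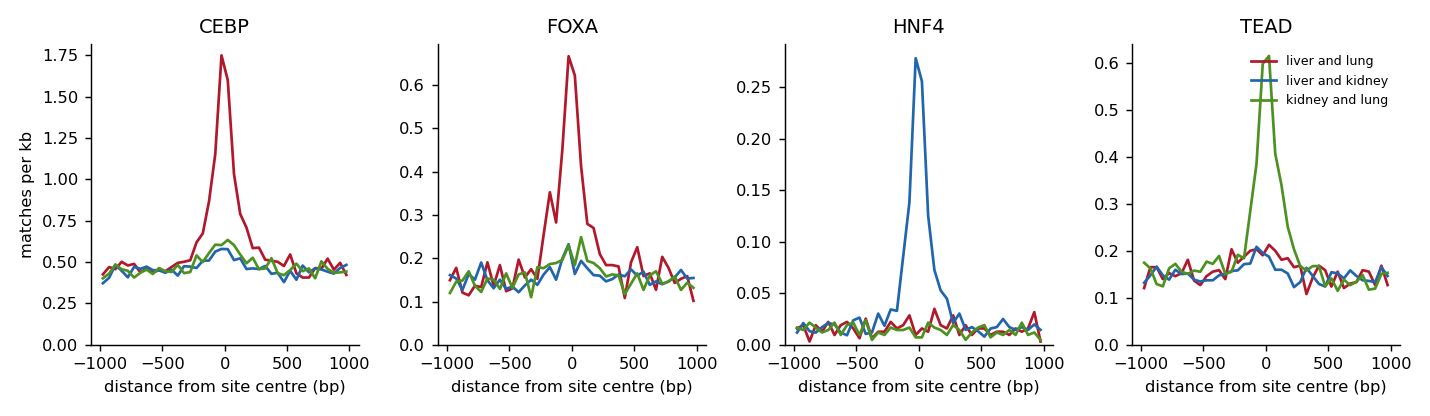
Consensus matches per kb, in bins of 50 bp, against the distance in bp from the centre of the site, for 3 classes of shared sites. CEBP and FOXA peak at the centre of liver-lung sites (dark red), with 2.95 and 3.85 times the density at 800 to 1000 bp, while the peak of HNF4 belongs to liver and kidney sites and that of TEAD to kidney and lung sites.

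Sites with a CEBP match had a median width of 502.5 bp and those without 533 bp, and a FOXA match lay in 12.3% and 12.8% of them. NFI letters, read by the nuclear factor I family, lay in 9.61% of sites with a CEBP match (Wilson interval 8.37% to 11.02%) and 13.7% of those without (12.7% to 14.8%). A CEBP match was found in 30.9% of sites present in all 10 sets and 30.1% of the other sites, and in 28.5% of sites within 10 kb of a start, 31.0% at 10 to 100 kb and 30.9% at 100 kb or more. It lay in 26.7% of the 296 sites with a mESC DNase hotspot and 30.6% of the others.

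Some consensus sequences went with a different width in the 2 tissues. This was looked at for 6 of them after the data had been examined, using the best-scoring hotspot of each site. Within a tissue, widths at sites with and without a match did not differ past the threshold for any of the 6. By exact permutation the lowest adjusted p was 0.0952, for ONECUT in liver, and the next 0.238, for AP-1 in liver. For the 292 sites with an ONECUT match, the median liver hotspot was wider than at sites without by 55 bp in B6xSPRET, 54 bp in B6xPWK, 55 bp in B6xCAST, 102 bp in B6xC3H and 97 bp in B6x129. In lung the same difference ran from −5 to 5 bp. The mean was 72.6 ± 24.6 bp in liver and −0.3 ± 3.90 bp in lung (SD, n = 5), and the tissues differed with an adjusted p = 0.0159 by exact permutation over 6 consensus sequences.

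AP-1 went the other way. Liver hotspots were narrower at the 896 sites with an AP-1 match, by −17.5 to −43 bp in the 5 hybrids (mean −29.1 ± 9.41 bp), and lung hotspots differed by −1 to 12 bp (3.0 ± 5.87 bp; adjusted p = 0.0159, exact permutation). NKX2 (CACTTGA, the letters read by NKX2-1 of lung epithelium) gave −8.8 ± 7.05 bp in liver and 13.4 ± 7.89 bp in lung (adjusted p = 0.0159), and FOXA −1.8 ± 7.65 bp in liver and 13.6 ± 5.91 bp in lung (adjusted p = 0.0238). CEBP gave 4.6 ± 5.37 bp in liver and 2.0 ± 5.10 bp in lung (adjusted p = 0.50), and NFI −6.8 ± 8.67 bp and 4.0 ± 5.21 bp (adjusted p = 0.0571). Paired by hybrid, none passed the threshold (adjusted p = 0.0938 for ONECUT, AP-1, NKX2 and FOXA). Without B6x129, B6xC3H or B6xSPRET the adjusted p was 0.0571 for ONECUT (68.125, 66 and 76.125 bp), AP-1 (−30.125, −29.625 and −32.375 bp) and NKX2 (−24.75, −19.5 and −21.5 bp) and 0.0857 for FOXA (−16.25, −14.375 and −13.75 bp).

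**Figure D4:**
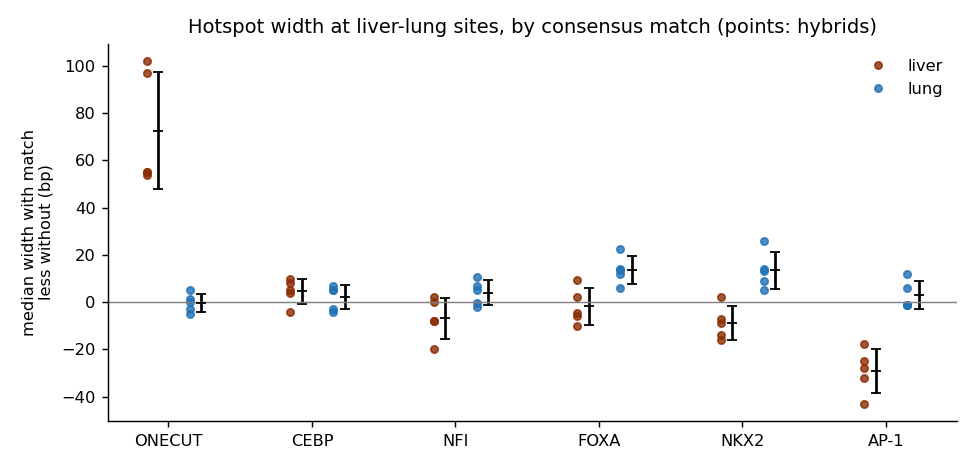
Median hotspot width at liver-lung sites with a consensus match less that at sites without (bp), in liver (brown) and lung (blue). Points are the 5 hybrids and bars the mean ± SD. The ONECUT points in liver lie at 54 to 102 bp and in lung at −5 to 5 bp, and the AP-1 points in liver all lie below 0.

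Sites were assigned to the protein-coding gene with the nearest start, which need not be a gene they act on. They were nearest to 4006 of 20126 genes (19.9%), of which 2702 had a single site and 114 had 5 or more, and 1030 sites lay within 10 kb of another. The 10 genes with most sites held 116 of them. Zfp608 had 15 of its 485 nearest regions, Nav2, a gene of axon outgrowth, 14 of 249, and Pard3, a cell polarity protein, 14 of 369. Fgfr2, the receptor for the fibroblast growth factors that direct lung branching, had 11 of 198, of which 8 were present in all 10 sets. Lpp and Rnf144b each had 11, and Magi1, Sox6, Svil and Tbl1xr1 each had 10.

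Foxa2, the forkhead factor of liver and airway epithelium, had 9 sites among 205 regions, 6 of them in all 10 sets. The same regions held 9 sites of liver and kidney only and 6 of kidney and lung only. The liver-lung sites spread from chr2:147839505-147840103, 206 kb downstream of the start of Foxa2, to chr2:148080117-148080805, 33.5 kb upstream. The site at chr2:147971208-147971816, 74.4 kb downstream and shown above with its FOXA match, had hotspots of 512, 609, 552, 576 and 555 bp in liver and 389, 294, 435, 298 and 363 bp in lung, in the order B6x129, B6xC3H, B6xCAST, B6xPWK and B6xSPRET. All liver values lay above all lung values. The site at chr2:148013389-148013840, 32.3 kb downstream and shown above with its CEBP match, had 340, 367, 427, 318 and 357 bp in liver and 229, 212, 394, 321 and 292 bp in lung, so the tissues overlapped. At chr2:148024043-148024957, 21.4 kb downstream, 4 of the 5 liver hotspots reached the score ceiling of 100 and the other stood at 91.8, while in lung B6xC3H had no hotspot and the others scored 3.73 to 34.6. At chr2:147933987-147939717 the B6x129 liver hotspot alone was 5731 bp wide and set the extent of the site, the other liver hotspots being 391 to 536 bp.

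Genes of functions common to both organs were counted from lists chosen with earlier results of these data known, so the counts describe and do not test them. The lists are given as sites per 1000 liver-lung sites, beside regions per 1000 of all merged regions. The 20 foregut endoderm factors had 50 sites at 14 genes, 7.94 per 1000 against 3.30, with 3.23 per 1000 at each of the other shared classes. After Foxa2, these were Tbx3 with 7, and Foxa1, Sox2 and Foxp1 with 6 each. Tbx3 also had 3 liver and kidney sites and 6 kidney and lung sites. Sox2 had 5 and 1 of these, and Foxp1 3 and 1. The 6 at Foxa1 were of 53 regions, none of which was a liver and kidney or kidney and lung site. Nkx2-1, Hnf4a and Onecut1 had 1 site each.

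The 30 xenobiotic genes had 30 sites at 20 genes, 4.76 per 1000 against 1.38 (1.98 at liver and kidney sites and 0.598 at kidney and lung sites). Aldh3a1, an aldehyde dehydrogenase, had 3, and 2 each lay nearest to Cyp2a5 and Cyp4b1, cytochromes P450, and to Por, the reductase that passes electrons to them. The 30 acute-phase and iron genes had 27 sites at 16 genes, 4.29 per 1000 against 1.08 (0.858 and 0.598). Il1r1, a receptor for interleukin-1, had 5, Il6st, the shared signal chain of interleukin-6 receptors, had 3, and Hp, the gene for the haemoglobin-binding haptoglobin, had 2 of its 7 regions. The lung epithelial list had 16 sites at 10 of 20 genes, 2.54 per 1000 against 0.974 (0.660 and 1.79), with 3 each at the club cell gene Scgb1a1 and the alveolar phosphate carrier Slc34a2 and 2 at the surfactant gene Sftpd.

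The hepatocyte list had 13 sites, 2.06 per 1000 against 1.53, and fewer than the 2.38 per 1000 of liver and kidney sites. The lipid list had 33 sites, 5.24 per 1000 against 3.10 and against 6.53 at liver and kidney sites, with 4 each at Pparg, the nuclear receptor of fat storage, and at the fatty acid carrier Cd36. For other cell types that both organs hold, the endothelial list had 23 sites (3.65 per 1000 against 2.25, and 4.78 at kidney and lung sites), the macrophage list 10 (1.59 against 1.15, with 0.726 at liver and kidney sites and 0.239 at kidney and lung sites), the mesenchymal list 10 (1.59 against 2.00), the NK and T cell list 3 (0.476 against 1.17) and the neutrophil list 2 (0.318 against 0.350). The kidney epithelial list and the B cell list had 2 sites each (0.318 per 1000, against 0.932 and 1.11). The 10 genes of the CEBP family and its regulators had 9 sites (1.43 per 1000 against 1.09, and 1.12 and 1.20 at the other shared classes), with 3 at Trib1, 2 at Cebpb and 2 at Cebpg, and none at Cebpa. Which cells of the organs gave the sites was not tested.

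**Figure D5:**
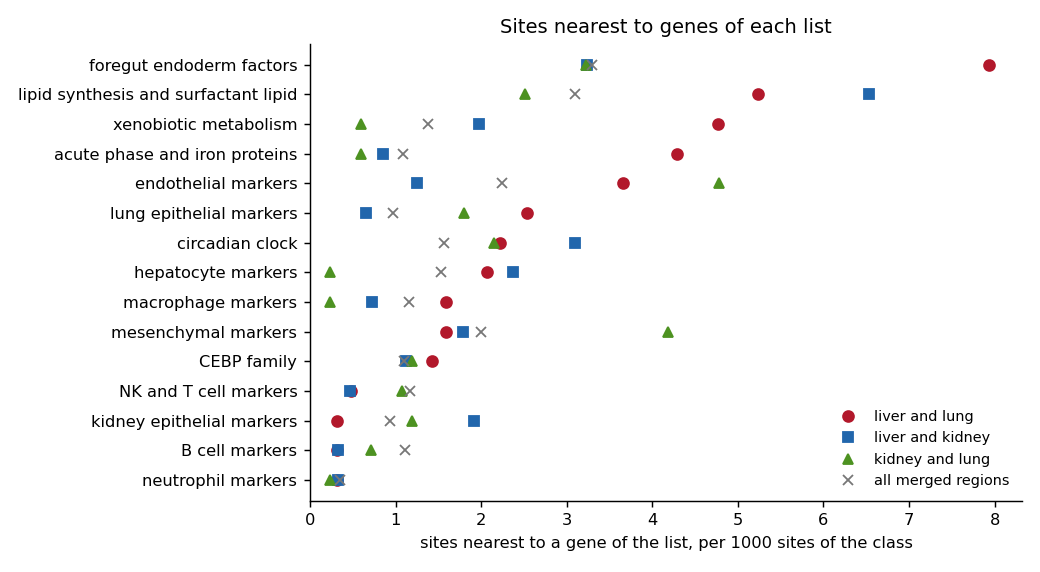
Sites nearest to a gene of each list, per 1000 sites of the class, for liver-lung sites (dark red circles), the other shared classes and all merged regions (grey crosses). Liver-lung sites lie furthest right of the 4 classes for foregut, xenobiotic and acute-phase genes (7.94, 4.76 and 4.29 per 1000), and lipid genes lie furthest right for liver and kidney sites (6.53).

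Another 3 sites, near genes of these lists, were picked after their values had been seen, as sites of all 10 sets with a CEBP match. The Hp site at chr8:109583855-109586195, 5.85 kb upstream of the start, reached the ceiling in all 5 liver sets, with widths of 2341, 2328, 1560, 1576 and 1553 bp in the hybrid order above. In lung it was 366, 329, 319, 356 and 335 bp wide and scored 6.58 to 12.2. The Orm2 site at chr4:63362047-63362649 lay across the start of the gene for an acute-phase orosomucoid, its centre 101 bp upstream. Its liver hotspots were 587, 564, 525, 515 and 538 bp wide, all at the ceiling, and its lung hotspots 350, 315, 365, 373 and 404 bp, with scores of 9.10 to 37.5. Orm2 has near-identical copies, Orm1 and Orm3, so reads may be shared between them.

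The Slc34a2 site at chr5:52993095-52994825, 55.4 kb upstream and overlapping an exon of the noncoding gene Gm30301, was of more even width. Its liver hotspots were 1720, 846, 707, 762 and 679 bp and its lung hotspots 988, 697, 930, 877 and 783 bp, so the tissues overlapped. The Ces1d site at chr8:93178043-93184310, in an intron of a carboxylesterase gene, was the one of the list sites with the higher median score in lung, 21.5 against 4.50. Its lung hotspots were 704 to 933 bp wide and its liver hotspots 161 to 318 bp, except 1 of 6268 bp in B6xC3H.

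By strength, taken as the smaller of the liver and lung median scores, the leading site was chr12:41416354-41417922, nearest to Lrrn3 and inside an intron of Immp2l. Its liver hotspots scored 100 in 4 sets and 49.2 in B6xSPRET, and its lung hotspots 100 in 4 sets and 34.8 in B6xC3H. Its window held no CEBP, FOXA or AP-1 match. The sites that followed included those nearest to Rplp1, CN725425, Gprc5b, Mllt10, Glt1d1 and Prkca, and 7 of the 8 leading sites were intronic. The windows at CN725425 and Mllt10 were 75.7% repeats. The Glt1d1 site, chr5:127956412-127957363, lay in an intron of Tmem132d, and the Prkca site, chr11:108305366-108308844, in an intron of Prkca, a protein kinase C.

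RNA-seq tables gave few genes enough counts to test, with 283725 to 809337 expected counts per sample. The mean of liver and lung was set against the mean of kidney and B cells with edgeR's quasi-likelihood test. Of all 4479 genes tested, 857 were higher in liver and lung (19.1%) and 771 were lower (17.2%), with a median log2 fold change of −0.11. Of the 567 tested genes nearest to at least 1 liver-lung site, 118 were higher (20.8%) and 87 lower (15.3%), with a median of −0.03. Of the 2452 tested protein-coding genes that were nearest to any merged region, the genes that could have been counted, 16.1% were higher and 19.5% lower, with a median of −0.19. Of the 67 genes nearest to 3 or more sites, 15 were higher (22.4%) and 5 lower (7.46%), with a median of 0.27. For genes nearest to a liver and kidney site, 187 of 1027 were higher and 181 lower, and for genes nearest to a kidney and lung site 110 of 579 and 102.

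Trf, the gene for the iron carrier transferrin, had 2 sites and stood at 569, 409, 184 and 1031 CPM (counts scaled to the size of the library) in the 4 liver samples and at 1.70, 10.96, 6.53 and 2.24 CPM in lung. It stood at 0 to 2.21 CPM in kidney and 0 to 5.21 CPM in B cells, so that lung overlapped both and the call rested on liver (log2 fold change 5.70, SE 0.68, edgeR adjusted p = 5.46e-07). Ppp1r9a, a protein phosphatase 1 partner with 2 sites, was above kidney and B cells in both tissues, at 313 to 831 CPM in liver and 87.1 to 173 CPM in lung against 0 to 3.00 CPM in kidney and 0 to 5.21 CPM in B cells (log2 fold change 7.83, SE 0.45, edgeR adjusted p = 4.37e-12). Il1rap, the partner chain of the interleukin-1 receptor, had 4 sites and a log2 fold change of 6.78, Hectd2 8.30 and Mrs2 6.03. These calls rested on liver as well. Il1rap stood at 947.64 to 1366.5 CPM in liver, 0 to 17.4 in lung and 0 to 7.57 in kidney, and Mrs2 at 4845 to 6869.5 CPM in liver, 42.4 to 67.1 in lung and 41.9 to 67.2 in kidney. Hectd2 stood at 1733 to 8875 CPM in liver, 5.09 to 23.9 in lung and 0 to 6.001 in kidney, so that lung overlapped kidney for all 3 genes. Hectd2, Il1rap and Mrs2 have exons of another gene on the opposite strand (Hectd2os, Gm20319 and Gpld1), and whether the counting used strand is not given in the sources used here, so their values may include that gene's reads.

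Among the lower genes were Fcamr, an Fc receptor of B cells (log2 fold change −5.36), BC067074 (−5.32), BC017158 (−4.60) and Tfeb (−4.23), by the same edgeR test. The calls of BC017158 and BC067074 rested on kidney, with means of 9769 and 175 CPM, against 2.76 and 1.55 CPM in B cells. BC017158 stood at 6.14 CPM in liver and 7.68 in lung. The call of Tfeb rested on B cells, with a mean of 53.4 CPM against 1.89 in kidney and 0.98 in lung. BC017158 overlaps Slc5a2, the glucose carrier of the proximal tubule, on the opposite strand. The call of BC017158 was lost without 1 B cell sample (−3.56, adjusted p = 0.106) and that of Tfeb without 1 kidney sample (−2.64, adjusted p = 0.9998). The lists held few tested genes, and their counts stand beside 19.1% higher and 17.2% lower of all genes tested. Higher genes were 4 of 9 hepatocyte, 2 of 2 foregut, 2 of 4 macrophage, 1 of 2 endothelial and 1 of 3 mesenchymal genes, and lower genes 1 of 2 endothelial and 1 of 3 kidney epithelial genes. Acute-phase genes had 2 higher and 1 lower of 5, and lipid genes 2 and 2 of 6, as did the CEBP list with 2 and 2 of 7. None of 3 xenobiotic, 4 lung epithelial, 4 B cell, 3 clock and 1 NK and T cell gene was called, and no neutrophil gene was tested.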

How the data were processed

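DNase-seq of liver, lung, kidney and B cells was analysed from hotspots that the authors deposited, 1 set per hybrid and tissue with replicates pooled. They aligned reads to mm10 with BWA (0.7.13) after Trimmomatic (0.33), kept reads of mapping quality 20 or more and called hotspots with hotspot2 (2.1.1) at an FDR of 5%. The deposited score is −log10 FDR, capped at 100. The read totals that the study lists for the sets entered no test here, and no value was adjusted for depth. The RNA-seq values deposited by the authors are expected counts and TPM per gene from RSEM after alignment with STAR (2.5.2a). The allelic data of the study were not analysed here.

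Hotspots were merged and each site assigned to the nearest start of a protein-coding gene (GENCODE vM21). Each of 24 consensus sequences was searched on both strands of 300-bp windows. Shares were compared by exact two-sided permutation over 252 splits of 5 against 5, adjusted by Benjamini-Hochberg over 48 tests, with a threshold of 0.05. The 5 hybrids pair the sets by design, since sets of 1 hybrid share a genotype, and the exact sign-flip test over hybrids was the paired alternative. Wilson intervals (95%) cover counting error only. Since replicates were pooled before deposit, p-values measure only the spread between the sets of the hybrids.

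For RNA, edgeR (4.0.16; TMM, filterByExpr) in R 4.3.3 was run on expected counts rounded to whole numbers, with all 17 samples grouped by tissue. DESeq2 (1.42.0) and limma (3.58.1, on log2(TPM + 1)) were alternatives. Other steps used Python 3.11.15 with numpy 2.4.6, scipy 1.17.1, pandas 2.3.3 and matplotlib 3.10.9. The scripts were tested on simulated data.

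The members, consensus sequences and gene lists were chosen with earlier results of these data known. Named sites and genes were up to 8 sites by strength, the 10 genes nearest to most sites, the 5 highest and 5 lowest called genes by RNA fold change with a mean of 20 CPM or more in a tissue, up to 4 genes of each list with most sites, and the consensus sequences called in both comparisons. The others were picked after their values were seen. Some items that these rules named are not reported here.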

Additional observations from a re-analysis of the deposited data

Results flagged for a closer look

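In 16 of 119 groups of 4 or 5 values a single value lay apart from the others by Dixon's test, which chance does in about 1 of 20 groups. In the lung sets, 0.786% of the sites of B6xCAST were at the score ceiling, with 0.213% in the next set. The ONECUT share at kidney and lung sites was 0.867% in 1 hybrid and at least 1.05% in the others. The Ces1d site had a liver hotspot of 6268 bp in B6xC3H (next 318 bp), and the Slc34a2 site 1 of 1720 bp in B6x129 (next 846 bp).

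The other 12 were CPM values of named genes, most of them a few reads in 1 library. Il1rap stood at 17.4 CPM in 1 lung sample and 7.57 in 1 kidney sample, Tfeb at 7.57 in 1 kidney sample, Trf at 2.21 in 1 kidney and 5.21 in 1 B cell sample, and BC067074 at 2.19 in 1 lung sample. BC017158 reached 24.6 CPM in 1 liver sample and 11.9 in 1 B cell sample. Ppp1r9a reached 173 CPM in 1 lung sample and 5.21 in 1 B cell sample, Mrs2 67.2 in 1 kidney sample and Fcamr 219 in 1 B cell sample.

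Between the tissues, the width difference of sites with and without a match differed for 4 consensus sequences. Liver less lung, it was 72.9 bp for ONECUT, −32.1 bp for AP-1 and −22.2 bp for NKX2 (adjusted p = 0.0159 each) and −15.4 bp for FOXA (adjusted p = 0.0238, exact permutation, n = 5).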

How the results depend on the processing

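In the alternatives that redefine sites, the number, CEBP share and mESC share were counted anew. No alternative that was run reversed a difference that passed the threshold. Some that did not pass changed sign without B6xSPRET. These included TEAD against liver and kidney sites and CEBP for width, liver less lung. The number of sites was 2417 from the 75000 highest-scoring hotspots of each set, 10856 when 2 of 5 hybrids sufficed and 2149 when all 5 were required, and leaving out each hybrid in turn it was 4691 to 5855. The CEBP share was 24.1% in 200-bp and 39.0% in 500-bp windows, 28.0% with 2 of 5 hybrids and 29.2% with hotspots within 100 bp merged, and 30.6% to 31.3% without 1 hybrid. The mESC DNase share was 2.18% when 50% of the site had to be covered, 8.36% for the highest-scoring hotspots, 5.30% with 2 of 5 hybrids and 4.70% to 5.31% without 1 hybrid.

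Paired by hybrid (the replicate block), the exact sign-flip test of 5 pairs cannot go below 0.0625. The width difference of 66.9 bp then had p = 0.0625, and 0 and 0 of the consensus sequences passed in the 2 comparisons in place of 19 and 13. The mESC DNase share against kidney and lung sites differed by −6.46 percentage points (adjusted p = 0.125), and the width differences by consensus were 72.9, −32.1, −22.2 and −15.4 bp for ONECUT, AP-1, NKX2 and FOXA (adjusted p = 0.0938). With 1 hybrid left out these results ranged over 59.0 to 82.75 bp for width with the sites defined anew (52.4 to 83.25 bp with the sites kept), −7.31 to −5.93 points for the mESC share (adjusted p at least 0.0762), 66 to 77.625 bp for ONECUT, −36.0 to −29.625 bp for AP-1, −24.75 to −19.5 bp for NKX2 and −16.625 to −13.75 bp for FOXA. The omissions with the sites kept, and the paired tests and omissions for the mESC comparison and for width by consensus, were chosen after seeing the data. In 200-bp windows the differences of ETS from liver and kidney sites (adjusted p = 0.115) and of HNF4 from kidney and lung sites (adjusted p = 0.0952) did not pass.

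Near liver-lung sites, edgeR called 210 genes higher with no filter on low counts (118 with it), and limma on log2(TPM + 1) called 158 lower (87 by edgeR). With hybrid as a covariate (16 samples) 111 were higher and 81 lower, and without 1 sample 112 to 142 and 63 to 86. The low totals of expected counts in the RNA tables limit which genes could be tested, although the study lists far more reads for these libraries. Scores and widths of the DNase sets were not adjusted for depth.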

Other observations

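A match to the consensus of PU.1 (GAGGAAGT), a factor of macrophages and B cells, lay in 2.72% of liver-lung windows (Wilson interval 2.34% to 3.15%), against 1.498% at liver and kidney sites, 3.18% at kidney and lung sites and 13.5% at sites of lung and B cells. The 10 sites of the macrophage list lay singly at Csf1r, Marco, Mrc1, Timd4, Lyz2, Ctsb, Cd14, Axl, Siglec1 and Spi1, and none lay at Adgre1, Cd68, Clec4f or the C1q genes. Marco is a scavenger receptor and Csf1r the receptor that macrophages need to survive. Of the endothelial list, Erg, a transcription factor of vessel lining, had 3 sites, and 2 each lay nearest to Cdh5, Flt1, Lyve1, Egfl7 and Gata4, while Pecam1, Tie1 and Eng had none.

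The circadian clock list had 14 sites at 6 of its 19 genes, 2.22 per 1000 against 1.57 per 1000 of all merged regions and 3.10 at liver and kidney sites. Rora, a nuclear receptor of the clock, had 5 of these, Nfil3, a repressor of clock-controlled genes, 3, and Cry1 and Bhlhe40 2 each. Time of day of tissue collection was not analysed here, and the counts were not tested.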
